A study of Danio rerio with 4 samples.

Results

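Heart muscle cells of zebrafish were examined 7 days after the tip of the ventricle was cut off. They were chosen by their own transcripts, as barcodes (droplets taken as cells) of the 18-month libraries with at least 200 detected genes, at most 25% of UMIs (unique molecular identifiers, each standing for 1 captured transcript) from mitochondrial genes and at least 3% of UMIs from myl7, the gene of the cardiac myosin regulatory light chain. The rule found 1671 cells, 622 in the injured and 1049 in the uninjured library, of 3403 barcodes that passed the gene and mitochondrial limits at 18 months and 5471 in the whole series (11795 barcodes before the limits). Both groups were fish of 18 months and strain AB with the transgenes pdgfrb:EGFP and cxcl12b:Citrine. The injured fish had lost the ventricle's apex 7 days before collection, and the reference fish are labelled Uninjured. A pair of libraries from fish of 6 months, used here only beside the main values, was also of strain AB and had the same transgenes plus fli1a:DsRed. One of that pair was homozygous mutant for pdgfrb (pdgfrb-/-, um148 allele) and the other was wildtype. Ventricles were digested with collagenase and elastase and sorted for EGFP, and libraries were made with a 10x Genomics kit that reads the 3' end of transcripts, per the labels' protocols. The number of fish behind each library is not given in the sources used here. With 1 library a group, no difference has a replicate check and no p-value is given. Intervals are at 95% and, like limits from a count of 0, cover counting error only.

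Zebrafish replace heart muscle lost to amputation. Surviving cardiomyocytes near the wound are known to take part of their contractile apparatus down, return to genes of the embryonic heart, shift their energy metabolism away from oxidation of fatty acids and re-enter the cell cycle. Markers of that state include natriuretic peptides, the embryonic ventricular myosin and desmin, while fibroblasts, epicardium and endocardium supply matrix and growth factors. The comparison asks which genes stood higher or lower in cardiomyocytes of the regenerating ventricle.

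Of 19 measured natriuretic and embryonic genes 9 were higher in injured cardiomyocytes, nppa, desma and myh7 among them, and so were the immunoproteasome genes psmb8a, psmb9a and psmb12 and the annexin gene anxa2a. Some genes of fuel use and mitochondria were lower, such as gpib, acsl1b, mfn1b and gamt. Others, such as eci2 and zgc:103678, were higher. Contractile genes as a group differed little in their median ratio. UMIs were summed over the cells of each library and scaled to CPM, UMIs per 1000000 UMIs of those cells. Genes were compared if both libraries together held 50 UMIs or more. Of these 3074, 450 (14.6%) were higher and 164 (5.34%) were lower in injured cells. Here, higher or lower means a ratio past 1.5-fold with an interval that excludes 1.

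That balance between higher and lower depended on the scaling. With TMM factors, which centre most genes and give the few very abundant ones less weight, 222 (7.22%) were higher and 342 (11.1%) lower, since each log2 ratio shifts by -0.22. The abundant myl7, cmlc1 (an essential myosin light chain) and gapdh together took 11.4% of the injured and 15.3% of the uninjured UMIs. The median log2 ratio of the genes compared was 0.15 in CPM and -0.08 with TMM, so small changes of either sign should be read against those values. Counts of list members called, given below, likewise stand against 14.6% higher and 5.34% lower among all genes in CPM, and 7.22% and 11.1% with TMM. Genes named below as higher or lower kept that call with TMM unless stated otherwise.

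**Figure D1:**
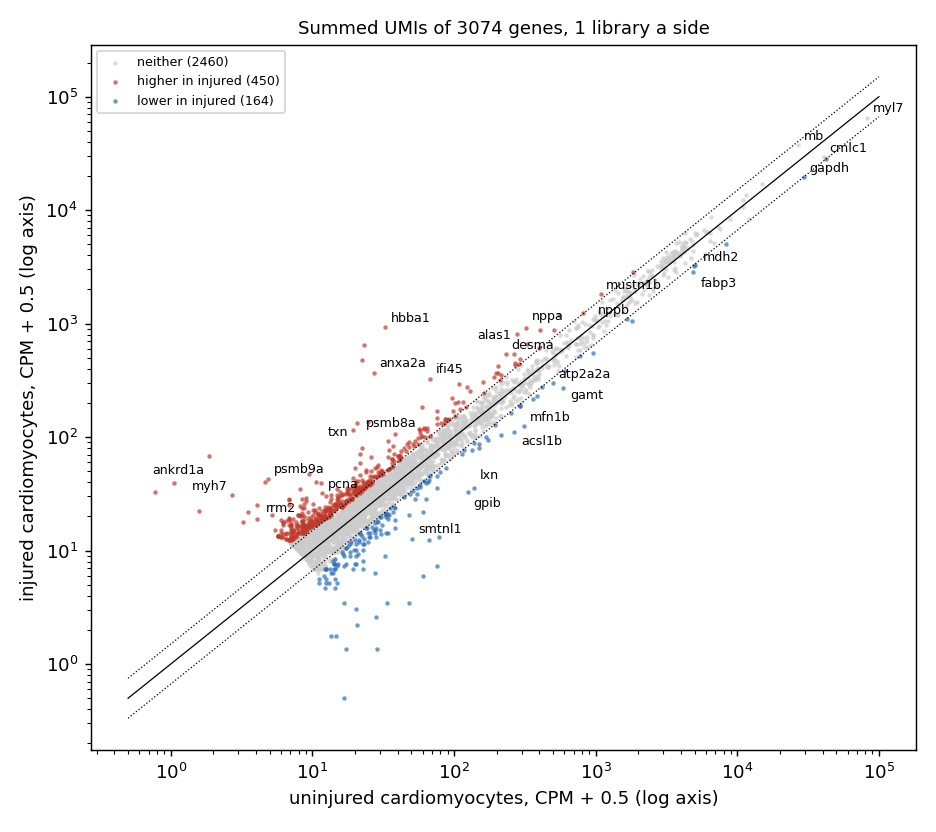
Summed level of each of 3074 genes in injured (vertical axis) and uninjured (horizontal axis) cardiomyocytes, in CPM plus 0.5 on log axes. The solid line marks equal levels and the dotted lines 1.5-fold, and red (450) and blue (164) points are genes higher and lower in injured cells.

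Libraries differed for reasons other than injury as well. Uninjured cardiomyocytes of 18 months and wildtype cardiomyocytes of 6 months differed past 1.5-fold in 980 of 2786 genes (35.2%), against 614 of 3074 for injured and uninjured. Of the 450 genes higher in injured cells, 317 (70.4%) also lay above both 6-month libraries, and of the 164 lower genes 112 (68.3%) lay below both. Over all 3074 genes, injured was the highest of the 4 libraries in 31.7% and the lowest in 20.3%. These shares are no baseline for the 70.4% and 68.3%, since the called genes were chosen as already above or below uninjured. Barcodes in the same libraries that passed the limits but fell under 3% myl7 are called other cells here. In them 410 of the 3074 genes (13.3%) were higher and 96 (3.12%) lower in injured. Of the 450 genes higher in cardiomyocytes, 131 (29.1%) were also higher in the injured other cells, which is 31.95% of the 410. Of the 164 lower genes 32 (19.5%) were also lower there, which is 33.3% of the 96. Genes at least as high in cardiomyocytes as in the other cells were 192 of the 450 higher (42.7%) and 100 of the 164 lower (61.0%). Levels were those of the injured library for higher genes and of the uninjured library for lower genes. The share over all genes is not given, so these 2 shares have no baseline and should not be set against each other.

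Cardiomyocytes were 44.7% of the injured barcodes within limits (622 of 1393, exact interval 42.0 to 47.3%) and 52.2% of the uninjured ones (1049 of 2010, 49.98 to 54.4%). Because the tissue was sorted for EGFP before sequencing, these shares do not measure the makeup of the ventricle. Summed UMIs of the cells were 2371024 in injured and 3653073 in uninjured, with medians per cell of 3078 and 2735 UMIs and 591 and 520 genes. No member barcode was found in both libraries (4 of all their barcodes were), and doublets were not removed.

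The cells matched their label by genes the rule did not use. Troponin T, tnnt2a, had a UMI in 100% of injured and 99.5% of uninjured members (8411 and 8825 CPM, against 273 and 213 CPM in the other cells), and tnnc1a, cardiac troponin C, stood at 6433 and 6200 CPM. The median share of myl7, which chose the cells, was 6.54% in injured and 8.12% in uninjured members, and 9.19% in mutant and 9.01% in wildtype. Few barcodes lay near the limit. In the injured library 39 barcodes with 3 to 4% myl7 and 28 with 2 to 3% had 7064 and 5733 CPM of tnnt2a, and in the uninjured library 24 and 20 barcodes had 8671 and 6666 CPM.

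**Figure D2:**
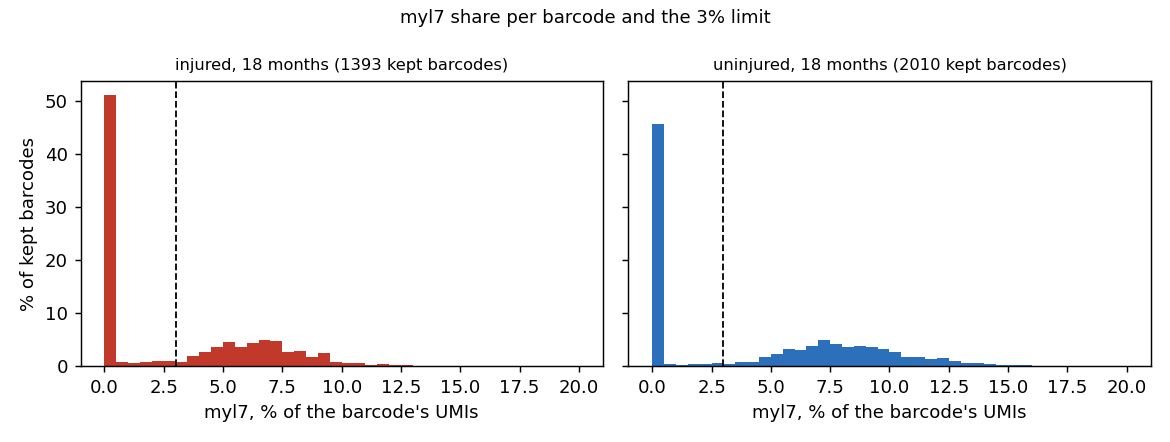
Distribution of the myl7 share of UMIs per barcode in the injured (left) and uninjured (right) library, as a percent of the barcodes within limits, with the 3% limit dashed and shares over 20% placed in the last bin. Barcodes fall into a group near 0 and a broad group above 3%, centred lower in injured (median 6.54%) than in uninjured members (8.12%).

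Although the sort was for EGFP, cardiomyocytes held almost none. EGFP had 12 UMIs in injured and 17 in uninjured members (5.06 and 4.65 CPM), against 277 and 167 CPM in the other cells. The gene that EGFP reports, pdgfrb, a receptor of platelet-derived growth factor, had 0 UMIs in injured and 2 in uninjured members, and a count of 0 allows up to 1.27 CPM. Citrine stood higher in injured members, with 82 against 53 UMIs (34.6 and 14.5 CPM, log2 ratio 1.25, interval 0.74 to 1.78), and had only 3.47 and 0.693 CPM in the other cells. The gene whose promoter drives it, the chemokine gene cxcl12b, had 1 and 2 UMIs in members. Citrine is a close relative of EGFP in sequence, so how reads were divided between them is uncertain.

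Transcripts of other cell types were scarce in both groups, with exceptions. Summed fibroblast markers (7 genes) stood at 19.4 CPM in injured and 11.2 CPM in uninjured members, against 5439 and 2273 CPM in the other cells, and 1 of the 7 was at 0 in each group. Mural markers (6 genes) stood at 43.0 and 36.4 CPM, with 4 and 1 genes at 0, and lymphocyte markers (4 genes found) at 0 and 0.547 CPM, with 4 and 2 at 0. Of 7 macrophage markers, at 403 and 299 CPM in all, lgals2a, a galectin gene, supplied 394 and 284 CPM, while the defining mpeg1.1 was at 0 in both. Epicardial markers (6 genes, 2 and 1 at 0) stood lower in injured members, 17.3 against 37.0 CPM, as did endothelial and endocardial markers (7 genes, 3 and 1 at 0), 11.4 against 61.9 CPM. Single cells weighed heavily in the epicardial and endothelial lists. Of the 59 uninjured UMIs of the keratin gene krt91, 50 lay in 1 cell, and so did 48 of the 173 of spock3.

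Erythrocyte markers (6 genes) were the largest exception, at 1610 CPM in injured and 57.2 CPM in uninjured members, with 0 and 2 genes at 0. The beta globin gene hbba1 had log2 ratio 4.85 and the alpha globin gene hbaa1 4.84, both from families of near-identical copies that share reads. In the injured group 3 cells held 87.5% of the UMIs of the haemoglobin genes and si:ch211-5k11.8 (4321 of 4941), a gene that RefSeq also lists as hbaa1.2. Without members that had over 1% of UMIs from other cell types, the log2 ratios of hbba1, hbaa1 and si:ch211-5k11.8 were 1.87, 1.48 and 1.67.

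Among natriuretic and embryonic genes, 9 of 19 measured members were higher and 1 lower (6 and 1 with TMM), against 14.6% and 5.34% of all genes. The median log2 ratio of the list was 0.57 (0.35 with TMM), against 0.15 over all genes. The lower member was the natriuretic peptide gene nppc, with 2 UMIs in injured and 102 in uninjured cells (-5.05). Of the 102, 1 cell held 69, and the other cells had 399 CPM in injured and 284 CPM in uninjured. A natriuretic peptide gene, nppa (ENSDARG00000052960), which atrial and stressed ventricular muscle secretes, stood at 922 CPM in injured cells and 322 CPM in uninjured cells, with 504 and 277 CPM in the 6-month mutant and wildtype. The injured level was thus the highest of the 4 libraries (log2 ratio 1.52, 1.42 to 1.62). When every cell was thinned to 1000 UMIs, nppa had a UMI in 39.8% of 566 injured cells and 21.7% of 909 uninjured cells, against 3.49% and 1.49% of the other cells at the same depth.

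The intermediate filament gene desma (ENSDARG00000058656), desmin, which links contractile units to each other and to the membrane, had 539 CPM in injured, 233 in uninjured, 208 in mutant and 237 in wildtype cells. Injured cells again stood above all the rest, which lay close together (1.21, 1.08 to 1.34). A myosin heavy chain gene that the files and RefSeq call myh7 had 72 UMIs in injured and 8 in uninjured cells (30.4 and 2.19 CPM, 3.79, 2.74 to 5.06), spread over 44 and 7 cells. RefSeq gives it the synonym vmhc (ventricular myosin heavy chain), but a table of gene IDs names it MYH6. A separate gene that the files call myh6 had 3 UMIs in injured and 1 in uninjured cells. Going by these names alone, which chamber's myosin myh7 is remains uncertain. Its relative myh7l, chosen after its values were seen, had 1958 and 1638 CPM (0.26), and near-identical copies can share reads.

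Not all stretch markers moved. The other ventricular natriuretic peptide, nppb, had 1094 CPM in injured and 955 CPM in uninjured cells (0.19, 0.12 to 0.27) and 729 and 421 CPM in mutant and wildtype, and it was found in 38.7% and 40.9% of thinned 18-month cells. The muscle gene mustn1b (1815 and 1085 CPM, 0.74) and the skeletal actin gene acta1a (879 and 509 CPM, 0.79) were past 1.5-fold in CPM, but not with TMM (0.52 and 0.57). Cardiac actin, actc1a, was close to equal (17051 and 14931 CPM, 0.19). A second cardiac actin, zgc:86709 (named actc2 in RefSeq and chosen after its values were seen), had 878 and 403 CPM (1.12), against 30.8 CPM in mutant and 213 CPM in wildtype cells.

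Within the injured library, nppb and desma were each found in a larger share of cells with nppa than of cells without it. Among thinned injured cells, nppb was present in 52.9% of 225 cells with nppa and 29.3% of 341 without, and desma in 41.8% and 24.3%. In uninjured cells the shares of nppb were 52.3% and 37.8%, and those of desma 20.3% and 17.4%. The correlation of log levels of nppa and nppb over cells was 0.40 in the injured and 0.19 in the uninjured library. These shares describe cells of 1 library each, which share depth and source.

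High levels of several of these genes came together in very few injured cells. The stretch-induced nuclear protein gene ankrd1a had 92 UMIs in 8 injured cells and 2 UMIs in 2 uninjured cells (38.8 and 0.547 CPM, log2 ratio 6.15), and 0 UMIs in both 6-month libraries. In the 4 injured cells with at least 5 ankrd1a UMIs, summed levels were 2560 CPM for nppa, 7423 for nppb, 2410 for desma, 8638 for mustn1b and 1749 for hspb9, a small heat shock protein gene. The other 618 injured cells had 889, 966, 502, 1678 and 34.0 CPM of the same genes, and uninjured cells 322, 955, 233, 1085 and 1.37 CPM. The levels of nppa and desma therefore stayed well above uninjured without these 4 cells, which were chosen after their values were seen. These 4 cells were deep, with 19998, 11475, 8614 and 6797 UMIs against an injured median of 3078. Their myl7 shares, in the same order, were 3.27, 4.18, 3.78 and 8.34%, against an injured median of 6.54%. The 4 were not alike. Those with 48 and 28 ankrd1a UMIs had 78 and 33 UMIs of nppa, 285 and 43 of nppb and 77 and 27 of desma. Those with 6 and 5 had 5 and 4 of nppa, 1 and 19 of nppb and 1 and 8 of desma. The injured cell with most nppa UMIs (124) was not among the 8 with ankrd1a.

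**Figure D3:**
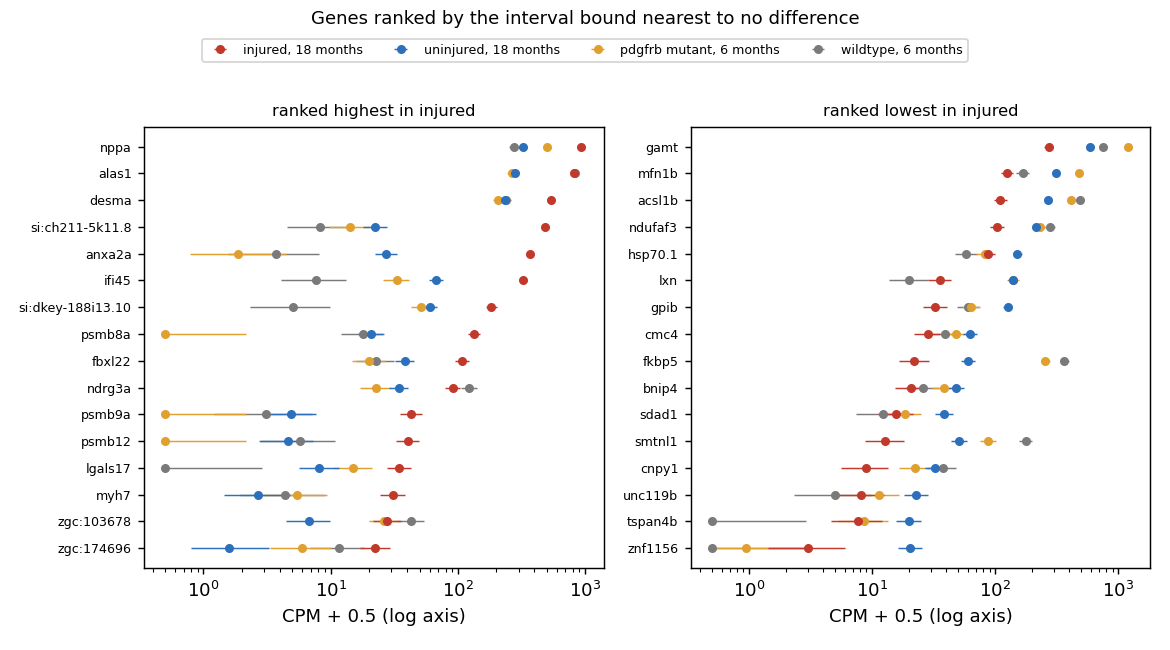
Summed level in CPM plus 0.5 (log axis) of the 16 genes ranked highest (left) and the 16 ranked lowest (right) in injured cardiomyocytes, in the 4 libraries, with exact Poisson intervals for counting error. For nppa and desma the injured point lies above the other libraries, while for alas1 and ndrg3a the 6-month wildtype is as high or higher.

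By their median ratio, contractile genes changed little as a group. Of 27 measured sarcomere and Z-disc genes, 5 were higher and 0 lower (1 and 2 with TMM), with a median of 0.26, or 0.03 with TMM. The sum over the list, which includes myl7, was lower in injured cells, at 147758 CPM against 171993 CPM in uninjured. Mutant and wildtype cells had 232752 and 217444 CPM. After myl7, which chose the cells, the gene with most UMIs was cmlc1, with 29406 CPM in injured, 41021 in uninjured, 67478 in mutant and 50218 in wildtype cells (-0.48), under 1.5-fold in CPM and past it with TMM (-0.70). Tropomyosin, tpm4a, stood at 12225 and 10917 CPM (0.16). The Z-disc actin crosslinker actn2b was higher, 426 against 202 CPM (1.07), yet mutant and wildtype had 1021 and 543 CPM, so the injured level lay within the range of other libraries. Because myl7 chose the cells, its own values are not independent of the rule. A looser and a stricter myl7 limit were tried for the named contractile genes and for the list median, but their values at those limits are not given here. Cells were chosen by myl7 at those limits too. Whether the values of other contractile genes depend on choosing by myl7 at all was therefore not tested. An F-box protein gene, fbxl22, ranked among the highest (107 and 37.8 CPM, log2 ratio interval 1.19 to 1.81), with 1 cell holding 30 of its 253 injured UMIs.

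Calcium handling genes had 4 of 15 higher and 1 lower (2 and 2 with TMM), against 14.6% and 5.34% of all genes (7.22% and 11.1% with TMM), with a median of 0.26 (0.04 with TMM). The calcium pump of the sarcoplasmic reticulum, atp2a2a, was the lower one, 298 CPM in injured, 496 in uninjured, 652 in mutant and 524 in wildtype cells (-0.74, -0.86 to -0.61). That is the lowest level of the 4 libraries, although thinning to equal depth left it under 1.5-fold (-0.56). The sodium-calcium exchanger slc8a1a went the other way (28.3 and 13.1 CPM), below mutant and wildtype at 87.4 and 67.0 CPM. Calsequestrin, casq2, which stores calcium, had 208 and 173 CPM (0.26).

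Genes of fuel use supplied several of the lowest ratios, though their lists did not move as a whole. Of 28 genes of fatty acid oxidation, 3 were higher and 3 lower (2 and 4 with TMM), with a median of 0.07 (-0.15 with TMM). The long-chain acyl-CoA synthetase gene acsl1b (ENSDARG00000003854), which activates fatty acids, had 109.7 CPM in injured, 266 in uninjured, 414 in mutant and 487 in wildtype cells (-1.28, -1.48 to -1.08). The heart fatty acid carrier fabp3 had 2832, 4876, 4463 and 3483 CPM in the same order (-0.78, -0.82 to -0.74). In both, the injured level was the lowest of the 4. The enzyme gene eci2, needed for unsaturated fatty acids, was higher instead (219 and 96.4 CPM, 1.19), and acadvl, which starts the oxidation of long chains, stood at 398 and 388 CPM (0.04).

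The citrate cycle list had 0 of 24 higher and 2 lower (0 and 5 with TMM), with a median of -0.09 (-0.31 with TMM). Malate dehydrogenase, mdh2, was 3207 CPM in injured, 4916 in uninjured, 4672 in mutant and 5027 in wildtype cells (-0.62). Fumarase, fh, was also lower (384 and 612 CPM, -0.67), but mutant and wildtype had 308 and 385 CPM, so here it is the uninjured library that stood high. After thinning, mdh2 (-0.58) and fh (-0.52) were under 1.5-fold.

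Glycolysis genes had 5 of 25 higher and 3 lower (3 and 4 with TMM), against 14.6% and 5.34% of all genes, and a median of 0.23 (0.01 with TMM). Glucose-6-phosphate isomerase, gpib (ENSDARG00000103826), had 76 UMIs in injured and 459 in uninjured cells (32.1 and 126 CPM, -1.97, -2.34 to -1.62), against 62.9 and 59.8 CPM in mutant and wildtype. It was nearly absent from the other cells (0.462 and 1.85 CPM) and was found in 3.36% of injured and 11.99% of uninjured thinned cells. The abundant gapdh stood at 19476 and 29652 CPM (-0.61), which fell under 1.5-fold with the mean of per-cell shares (-0.54) and at 6% myl7 (-0.50). Higher were pkma, a pyruvate kinase (365 and 205 CPM, 0.83), and slc16a3, a lactate carrier (20.2 and 7.66 CPM, 1.40), and in mutant and wildtype these had 218 and 330 CPM and 9.05 and 23.4 CPM.

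Other mitochondrial and energy genes among the lowest were mfn1b, a mitofusin that joins mitochondria, gamt, which makes creatine, and ndufaf3, which helps to build respiratory complex I. In mfn1b, injured cells had 125 CPM, uninjured 314, mutant 484 and wildtype 167 (-1.33). For gamt the levels were 272, 584, 1189 and 758 CPM (-1.10), and for ndufaf3 103, 214, 232 and 279 CPM (-1.05). In each of these the injured library was the lowest. In thinned cells gamt was found in 23.7% of injured and 41.4% of uninjured cells, and mfn1b in 11.3% and 23.7%.

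Respiratory chain genes had 4 of 96 higher and 3 lower (2 and 9 with TMM), with a median of 0.03 (-0.20 with TMM), both shares below those of all genes. The abundant ATP synthase gene atp5mc3b was 7081 and 7250 CPM (-0.03). Transcripts of the mitochondrial genome had 0 of 13 higher or lower, with a median of -0.20 (-0.43 with TMM). Ribosomal protein genes had 4 of 82 higher and 0 lower (1 and 0 with TMM). Their median was 0.20 in CPM and -0.02 with TMM, and 78 of the 82 stood highest in the injured library of all 4 in CPM, as did 31.7% of all genes.

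Heme synthesis and iron genes included one of the highest ratios at high level. The first enzyme of heme synthesis, alas1, had 811 CPM in injured and 279 CPM in uninjured cells (1.54, 1.43 to 1.65). Mutant cells had 265 CPM, but wildtype cells of 6 months 839.8 CPM, so the injured level was reached without injury in another library. In thinned cells it was found in 40.8% of injured, 19.1% of uninjured, 19.0% of mutant and 49.8% of wildtype cells. The redox and iron list as a whole had 2 of 22 higher and 2 lower (1 and 3 with TMM; median 0.17, -0.05 with TMM). Its most abundant gene, mb (myoglobin, which holds oxygen in muscle), stood at 37164, 26993, 21339 and 41363 CPM in injured, uninjured, mutant and wildtype cells, the same order of libraries as alas1.

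Thioredoxin, txn, which keeps protein thiols reduced, was the higher redox gene that kept its call, with 114 CPM in injured, 18.9 in uninjured, 7.70 in mutant and 13.7 in wildtype cells (2.59). It was more abundant in the other cells (324 and 198 CPM). The metal-binding protein gene mt2 was lower (7 and 122 UMIs, 2.95 and 33.4 CPM), but 1 uninjured cell held 33 of the 122. Mutant and wildtype cells had 45.3 and 3.25 CPM, so wildtype was close to injured. In the other cells mt2 went the opposite way (21.7 CPM in injured and 7.16 CPM in uninjured).

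Interferon and antigen presentation genes had 7 of 14 higher and 1 lower (4 and 2 with TMM), against 14.6% and 5.34% of all genes, with a median of 0.58 (0.35 with TMM). The immunoproteasome gene psmb8a (ENSDARG00000001303), a catalytic subunit that trims peptides for class I presentation, had 315 UMIs in injured and 74 in uninjured cells (133 and 20.3 CPM, 2.71). It had 0 UMIs in mutant cells and 17.6 CPM in wildtype cells. Its partners psmb9a (42.6 and 4.38 CPM, 3.28) and psmb12 (40.1 and 4.11 CPM, 3.29) stood apart in the same way, with 0 UMIs in mutant cells and 2.60 and 5.20 CPM in wildtype.

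The immunoproteasome genes were also higher in the other cells of the injured library, where psmb8a had 98.5 against 12.24 CPM, psmb9a 64.3 against 11.1 CPM and psmb12 62.0 against 9.47 CPM. In thinned cells psmb8a was found in 12.01% of injured and 1.76% of uninjured cardiomyocytes, and in 10.6% and 1.03% of the other cells. Activator subunits that join the same particle differed less. psme1 stood at 67.1 and 39.7 CPM (0.76, but 0.53 and under 1.5-fold with TMM), and psme2 at 63.7 and 56.7 CPM (0.17). The class I light chain b2m had 454 and 533 CPM (-0.23). A class I heavy chain gene, mhc1uba, chosen after its values were seen, had 0 UMIs in both 18-month groups of cardiomyocytes and 14 and 7 UMIs in the mutant and wildtype ones. In the other cells it stood at 4.39 CPM in injured and 36.7 CPM in uninjured, the opposite direction to psmb8a. Differences between fish and effects of injury cannot be told apart here.

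The interferon-stimulated gene ifi45, called ifi27.1 in RefSeq, had 326 CPM in injured, 67.3 in uninjured, 32.6 in mutant and 7.15 in wildtype cells (2.27, 2.06 to 2.49). A relative, si:dkey-188i13.10 (ifi27.7 in RefSeq), had 183, 59.4, 51.2 and 4.55 CPM (1.62). Both were therefore highest in injured cells, with the 18-month uninjured library next. The signal transducer of interferon stat1a (34.6 and 20.8 CPM, 0.73) and its partner irf9 (15.6 and 8.49 CPM, 0.88) lost their call with TMM. In thinned injured cells, ifi45 was present in 26.5% of 68 cells with psmb8a and 20.5% of 498 without.

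Cytoskeleton genes had 11 of 27 higher and 3 lower (8 and 3 with TMM), against 14.6% and 5.34% of all genes (7.22% and 11.1% with TMM), with a median of 0.45 (0.22 with TMM). The annexin gene anxa2a (ENSDARG00000003216), whose protein binds membranes and actin, had 875 UMIs in injured and 98 in uninjured cells (369 and 26.8 CPM, 3.78, 3.48 to 4.10), against 1.36 and 3.25 CPM in mutant and wildtype. Other cells held far more, 2504 CPM in injured and 1152 CPM in uninjured. In thinned cells it was present in 12.19% of injured and 2.09% of uninjured cardiomyocytes, and in 55.5% and 44.6% of the other cells. The part that RNA from other cells has in this was not tested. Marker sums in the same cardiomyocytes cannot decide it, since they went both ways. Fibroblast markers were at 19.4 and 11.2 CPM and smooth muscle markers at 55.7 and 9.85 CPM. Erythrocyte markers were at 1610 and 57.2 CPM, and epicardial markers at 17.3 and 37.0 CPM.

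Injured cardiomyocytes with anxa2a differed from those without in related genes. The thioredoxin gene txn was present in 20.3% of 69 thinned cells with anxa2a and 5.43% of 497 without. The actin-sequestering thymosin gene tmsb4x was present in 55.1% and 33.0%, whereas psmb8a was present in 2 of the 69 and 66 of the 497. The cardiomyocyte gene cmlc1 was present in all 69 and in all 497, so its presence tells nothing particular about the cells with anxa2a. Its mean was 24.6 UMIs in cells with anxa2a and 29.9 in those without. In the injured other cells anxa2a, txn and tmsb4x stood at 2504, 324 and 11531 CPM, against 369, 114 and 666 CPM in injured cardiomyocytes. Doublets were not removed, and whether RNA of other cells brought these genes together was not tested.

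Among the most abundant cytoskeleton genes after tpm4a, the actin gene actb2 (991 and 839 CPM, 0.24) and the myosin light chain genes myl9a (882 and 647 CPM, 0.45) and myl9b (687 and 624 CPM, 0.14) stayed under 1.5-fold. In injured and uninjured cells tmsb4x had 666 and 327 CPM (1.03), and cfl1, cofilin, which severs actin filaments, 535 and 263 CPM (1.02). The tubulin gene tuba8l had 79.7 and 21.9 CPM (1.86) and the membrane-actin linker msna (moesin) 148 and 74.7 CPM (0.98). The transgelin gene tagln, a smooth muscle marker also used by embryonic heart muscle, had 46.4 and 9.03 CPM (2.36). Of the smooth muscle markers, acta2 had 22 and 3 UMIs, each in 1 cell. Lower were the keratin genes krt18a.1 (2.95 and 16.2 CPM, -2.45) and krt8 (29.1 and 43.8 CPM, -0.59), which other cells held at 1591 and 999 CPM and at 3055 and 2527 CPM. The other cells held tmsb4x at 11531 and 9096 CPM. In them tuba8l (265 and 121 CPM, 1.13) and tagln (222 and 58.7 CPM, 1.92) were higher in injured as well. Summed over the cytoskeleton list, cardiomyocytes had 18704 and 15419 CPM and the other cells 44730 and 38725 CPM.

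**Figure D4:**
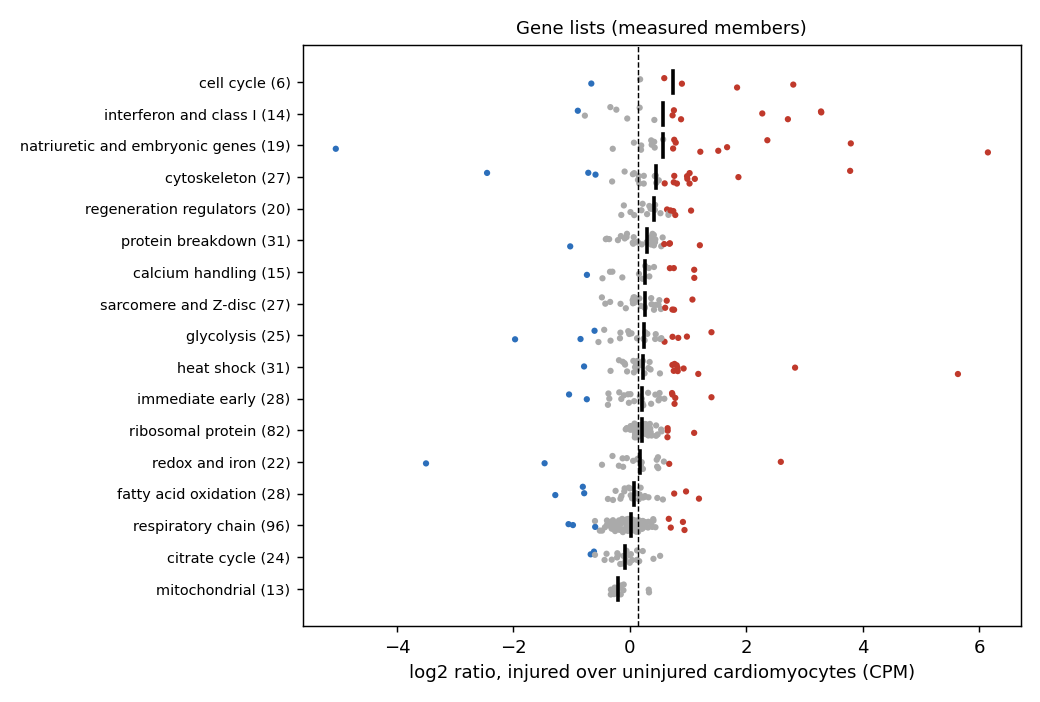
Log2 ratio of CPM, injured over uninjured cardiomyocytes, for each measured member of 17 gene lists (number of members in brackets), with list medians as black bars and the median of all genes (0.15) dashed. Red and blue points are genes higher and lower in injured cells.

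Few cell cycle genes were abundant enough to measure. Of 43, only 6 reached 50 UMIs, of which 4 were higher and 1 lower (2 and 1 with TMM), with a median of 0.74 (0.52 with TMM). Proliferating cell nuclear antigen, pcna, the clamp of DNA polymerase, had 93 UMIs in injured and 40 in uninjured cells (39.2 and 10.9 CPM, 1.84, 1.29 to 2.41), with 11.3 and 10.4 CPM in mutant and wildtype. Ribonucleotide reductase, rrm2, which makes the building blocks of DNA, had 59 and 13 UMIs (24.9 and 3.56 CPM, 2.81, 1.92 to 3.80). The cell cycle inhibitor cdkn1bb was lower (13.5 and 21.4 CPM, -0.66), and the cyclin gene ccnd2a (17.3 and 9.31 CPM, 0.89) lost its call with TMM.

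In sum over all 43 genes, injured cells had 432 CPM and uninjured cells 279 CPM. The split of that list into genes of DNA replication and of mitosis was made after their values were seen, so the sums that follow are a description. Over 13 genes of DNA replication, injured cells had 251 UMIs (106 CPM) and uninjured cells 84 (23.0 CPM), with 37.1 and 25.4 CPM in mutant and wildtype. Without pcna and rrm2 the sums were 99 and 31 UMIs (41.8 and 8.49 CPM). The helicase subunit genes mcm2 and mcm6 had 10 UMIs each in injured cells and 0 in uninjured cells. Cells with at least 3 of the 13 genes numbered 17 of 622 in injured (2.73%) and 1 of 1049 in uninjured (0.0953%), and 0 in both 6-month libraries. Thinned to 1000 UMIs, 9 of 566 injured cells (1.59%) and 2 of 909 uninjured cells (0.220%) had at least 2 of them. At that depth 6.36% of injured and 2.31% of uninjured cardiomyocytes had at least 1, against 9.01% and 9.60% of the other cells.

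Genes of mitosis stayed near 0. Summed over 14 of them, injured and uninjured cells had 7 UMIs each (2.95 and 1.92 CPM), and no cell in either group had 3. The proliferation marker mki67, the topoisomerase gene top2a and the cyclin genes ccna2 and ccnb1 had 0 UMIs in both, which allows up to 1.27 CPM in injured and 0.821 CPM in uninjured cells. In other cells the same 14 genes stood at 104.5 CPM in injured and 16.6 CPM in uninjured.

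Regulators of heart regeneration had 5 of 20 higher and 0 lower (1 and 0 with TMM), with a median of 0.41 (0.19 with TMM). The cardiac transcription factor hand2 was the one that kept its call, at 117 CPM in injured, 56.4 in uninjured, 67.9 in mutant and 30.6 in wildtype cells (1.05, 0.79 to 1.32). The cardiac factor nkx2.5 had 204 and 152 CPM (0.43), and the cytokine signalling brake socs3a 638 and 633 CPM (0.01). The neuregulin receptor gene erbb2 had 0 UMIs in both groups, and gata4, a cardiac transcription factor, had 9 and 11, too few to compare. Secreted matrix genes were mostly below the minimum (36 of 38 found), with 90.7 and 47.9 CPM in sum over the list.

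Stress genes differed by member. Immediate early genes, which tissue digestion can induce, had 5 of 28 higher and 2 lower (1 and 4 with TMM; median 0.21, -0.01 with TMM), and fosab stood at 569 and 493 CPM (0.20). Heat shock genes had 10 of 31 higher and 1 lower (4 and 1 with TMM), with a median of 0.23 (0.00 with TMM). The chaperone hsp90aa1.1, known for folding muscle myosin, had 169 and 74.7 CPM (1.17), with 79.2 and 156.6 CPM in mutant and wildtype. The inducible hsp70.1 was lower, 87.3 and 151 CPM (-0.79), and in other cells 1303 and 3277 CPM. At a limit of 1% myl7 hsp70.1 was under 1.5-fold (-0.34). The small heat shock gene hspb9 had 161 UMIs in injured and 5 in uninjured cells (5.63), of which 1 injured cell held 47. Protein breakdown genes had 4 of 31 higher and 1 lower (1 and 3 with TMM; median 0.29, 0.07 with TMM), and psmb5, the proteasome subunit that psmb8a replaces, was higher as well (43.4 and 18.9 CPM).

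Remaining genes at the top of the ranking had fewer UMIs. The uncharacterised zgc:174696 had 52 UMIs in injured and 4 in uninjured cells (4.32), lgals17 81 and 28 (2.16), ndrg3a 216 and 123 (1.44), and zgc:103678 (mpc2a in RefSeq, a carrier subunit that brings pyruvate into mitochondria) 65 and 23 (2.12). For zgc:103678 and ndrg3a, wildtype cells had 42.2 and 122 CPM, above the injured 27.4 and 91.1 CPM. At the bottom, the zinc finger gene znf1156 had 6 and 73 UMIs (-2.98) with 1 and 0 in mutant and wildtype, so the uninjured library alone stood high. The smoothelin-like gene smtnl1 had 12.23, 50.4, 87.4 and 177 CPM in injured, uninjured, mutant and wildtype cells (-2.04), and cnpy1, a modulator of FGF signalling in zebrafish, 8.44, 32.0, 21.7 and 37.0 CPM (-1.92). In both of these the injured library was the lowest.

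Several of the other lower genes varied as much between uninjured libraries. The protease inhibitor lxn, latexin, had 35.01 CPM in injured, 138 in uninjured, 140 in mutant and 19.5 in wildtype cells (-1.98). The glucocorticoid-induced co-chaperone fkbp5 had 21.5, 60.0, 255 and 365 CPM (-1.48), so the step between the 6-month and 18-month libraries was larger than that between injured and uninjured. The genes unc119b (-1.56), sdad1 (-1.31), cmc4 (-1.16), bnip4 (-1.23) and the tetraspanin gene tspan4b (-1.44) were also lower, each with 66 UMIs or fewer in injured cells. For unc119b and tspan4b thinning ended the call (-1.16 and -1.54 with intervals that include 1).

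**Figure D5:**
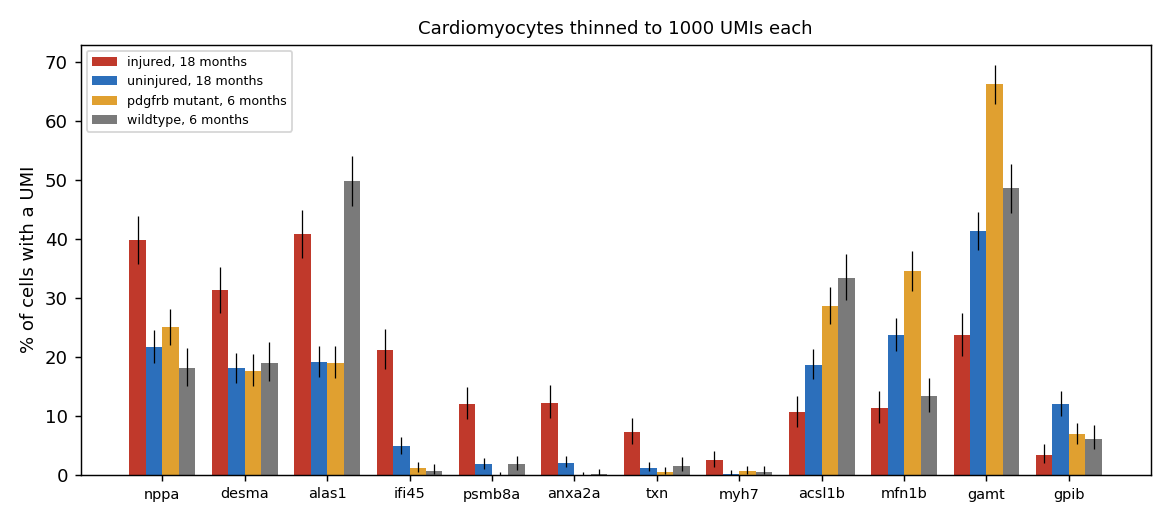
Percent of cardiomyocytes with at least 1 UMI of each of 12 genes after every cell was thinned to 1000 UMIs, in the injured (566 cells), uninjured (909), pdgfrb mutant (799) and wildtype (568) libraries, with exact binomial intervals. Bars for nppa and desma are highest in the injured library (39.8% and 31.3%), and those for acsl1b, gamt and gpib lowest there (10.6%, 23.7% and 3.36%).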

How the data were processed

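The deposited values were whole-number UMI counts per gene and barcode, and per the file headers the authors' counting tool was Cell Ranger 4.0.0. The build GRCz11 and the tool Seurat, whose use is not stated, are named per the submitters' processing notes. Deposited matrices held 25110 features, and features of the same symbol were summed (24438 symbols). From the counts, UMIs were summed over the cells of each library, scaled to CPM and compared as log2 ratios of injured over uninjured with exact conditional binomial intervals (scipy 1.17.1, numpy 2.4.6, Python 3.11.15). A library at 0 was set to 3 UMIs in its ratio. The ratios, intervals and calls were tested on simulated independent Poisson sums, which lack the clumping of UMIs in single cells seen for some genes here. Thinning and the choice of cells were not simulated. Thinning drew 1000 UMIs per cell without replacement and left out 56 injured and 140 uninjured cells with fewer. Named genes were the 12 highest and 12 lowest, by the interval bound nearest to 1, among genes at least as high in cardiomyocytes as in the other cells, and the 4 highest and 4 lowest of the rest. All had a UMI in at least 5% of the cells where they were higher. Genes with symbols of mitochondrial, ribosomal protein or haemoglobin genes were left out. Because that went by symbol, si:ch211-5k11.8 (hbaa1.2 in RefSeq) stayed in the ranking. The 2 to 5 most abundant members of each list, myl7, pdgfrb, cxcl12b and the reporters were also named. The cells, gene lists and rules were chosen with earlier results of these data known. List members outside these ranks, and genes so marked in the text, fall outside the rule. RefSeq names come from a table of assembly GRCz12tu, in which 119 of 127 named symbols matched, and no coordinates or sequences are given. Alternatives covered scaling, the minimum UMIs, thinning, the weight of cells, the myl7 and mitochondrial limits, cells with markers of other types, the top cell of each gene and shared barcodes.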

Additional observations from a re-analysis of the deposited data

Results flagged for a closer look

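Barcodes with at least 3% myl7 but over 25% mitochondrial UMIs lie outside the main comparison, and 10 genes were looked at in them. For 4 of the 10 the injured interval lay above the uninjured one, and for 0 below it. There were 12 such barcodes in the injured library (31319 UMIs) and 45 in the uninjured library (138792 UMIs). The natriuretic peptide gene nppa was at 2043 CPM in the injured ones (64 UMIs, exact interval 1574 to 2609) and 173 CPM in the uninjured ones (24 UMIs, 111 to 257). The heme synthesis gene alas1 was at 543 CPM (17 UMIs, 316 to 869) and 101 CPM (14 UMIs, 55.1 to 169). The interferon-stimulated gene ifi45 was at 287 CPM (131 to 546) and 36.0 CPM (11.7 to 84.1), and myoglobin, mb, at 18551 CPM (17073 to 20123) and 14669 CPM (14039 to 15321). These 4 were called out because they exceed the level in the uninjured library in barcodes that the main comparison left out. It is no independent check, since the barcodes come from the same libraries and the genes were already named above. The alternative with a mitochondrial limit of 50% also extends into these barcodes. The intervals of desma, anxa2a, psmb8a, fabp3, gpib and gamt overlapped between the libraries, with desma at 287 CPM (131 to 546) and 216 CPM (146 to 309).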

How the results depend on the processing

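No paired analysis was possible because each group has 1 library. Counts of genes higher and lower in injured cardiomyocytes were 450 and 164. They became 222 and 342 with TMM scaling, 191 and 410 with median-of-ratios scaling, 120 and 58 at a minimum of 200 UMIs, 879 and 278 at a minimum of 1, and 110 and 60 after thinning to 1000 UMIs. With the mean of per-cell shares 255 were lower, but there a gene was called by 1.5-fold alone, without an interval, so the count is not directly comparable. At 6% myl7 220 were higher. Fewer genes were tested at the higher minimum (1290) and after thinning (1246). The cause of the other shifts was not tested. Median-of-ratios scaling moved each log2 ratio by -0.28. Cardiomyocytes were 48.1% of injured barcodes at a limit of 1% myl7, and 27.4% of injured and 42.8% of uninjured barcodes at 6%. Of 122 named genes 50 were called, and 35 of these kept the call in all 12 alternatives, with the mean of per-cell shares again judged by fold alone. Signs turned for ccnd2a after thinning (-0.32) and sparc at 1% myl7 (-0.30), and rgs5b, a mural marker, was past 1.5-fold in the other direction at 6% myl7 (-0.60). The calls of krt91 (-0.48 at 6% myl7) and spock3 (-0.28 at 1%) ended with the choice of cells. Depth limits rare genes: at 50 UMIs over both libraries, 37 of 43 cell cycle genes and 36 of 38 secreted matrix genes could not be measured.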
